A study of Mus musculus with 6 samples.

Results

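The genes described here are the platelet-derived growth factor (PDGF) ligands and receptors and the vascular endothelial growth factor (VEGF) ligands of mouse pancreatic fibroblasts. They were taken by symbol from the authors' count table, and all 10 named genes (Pdgfa, Pdgfb, Pdgfc, Pdgfd, Pdgfra, Pdgfrb, Pdgfrl, Vegfa, Vegfb and Vegfc) were found among its 14831 genes. RNAseq was performed on 6 libraries of immortalized pancreatic fibroblasts of mixed strain background, each grown to confluence in its own well. The 3 libraries labelled WT and the 3 labelled KO (genotype label Gli2-/-;Gli3-/-) differ, according to the methods of the study, in the viruses given to lines outgrown from adult pancreata of Gli floxed mice: controls received an eGFP adenovirus and a dsRed lentivirus, while KO cells received eGFP and Cre adenoviruses, and infected cells were sorted. All cells were kept in DMEM with 10% calf serum, which is itself a source of growth factors. The replicates are wells, and the spread between wells says nothing of how independently made lines would differ.

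PDGF ligands are secreted dimers that activate the receptor tyrosine kinases encoded by Pdgfra and Pdgfrb, and they drive the growth, migration and matrix production of mesenchymal cells. VEGF ligands belong to the same cystine-knot superfamily and signal mainly to endothelial cells of blood and lymphatic vessels through the receptors encoded by Flt1, Kdr and Flt4, with neuropilins as co-receptors. In the pancreas, fibroblasts are commonly identified by their PDGF receptors, and they can supply VEGF ligands to nearby vessels.

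The libraries hold between 31728420 and 41035931 counts, and 14289 genes passed the expression filter and were tested with edgeR's quasi-likelihood test. The genes named by the genotype were higher, not lower, in the libraries labelled as lacking them. Gli2 had 809, 944 and 868 counts in the WT-labelled libraries and 1932, 2316 and 1926 in the KO-labelled ones, and Gli3 had between 12.4 and 12.5 CPM (counts scaled to library depth with TMM factors) against 39.3 to 42.5 CPM. Gli3 rose by 1.71 on the log2 scale (standard error, SE, 0.05, adjusted p = 2.10e-11), and counts over whole genes do not separate the floxed exons from the others. Every direction given here therefore rests on labels that these genes do not bear out. For that reason the text speaks of WT-labelled and KO-labelled libraries, and groups were kept as labelled.

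Of the 10 PDGF and VEGF genes, all were tested and 3 were differentially expressed, defined as a Benjamini-Hochberg adjusted p under 0.05 over all genes tested together with a change of at least 1.5-fold. Pdgfra and Pdgfrb fell in the KO-labelled libraries, Pdgfrl rose, and none of the 7 ligand genes passed both limits by edgeR, DESeq2 or limma. Among all genes tested, 17.7% passed them, with 11.6% higher and 6.1% lower. By the adjusted p alone, 7 of the 10 genes passed, 3 higher and 4 lower, where 58.7% of all genes did (29.9% higher and 28.8% lower). The median log2 fold change was 0.00 over the 10 genes and 0.00 over all genes tested, with 1 of the differentially expressed genes higher and 2 lower.

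**Figure D1:**
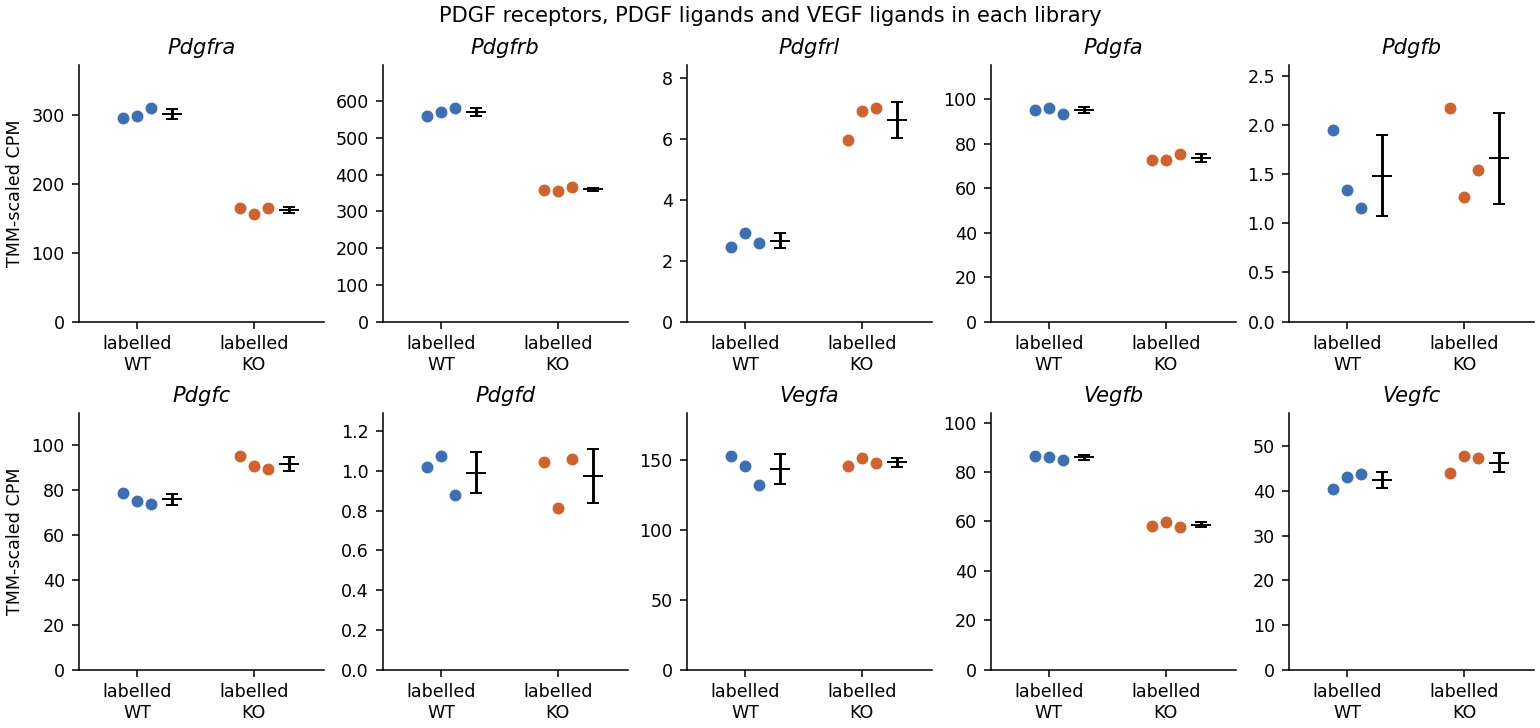
Read counts scaled to library depth (CPM with TMM factors, linear axes from 0) of the 10 genes in each library, with the mean and SD of each group (n = 3) beside the points. Pdgfra and Pdgfrb lie lower in all 3 KO-labelled libraries, Pdgfrl lies higher in all 3, and the groups overlap for Pdgfb, Pdgfd and Vegfa.

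The receptor genes carried the clearest differences. Pdgfra encodes the receptor that binds PDGF-A, PDGF-B and PDGF-C chains and is a standard fibroblast marker. It had 296, 299 and 310 CPM in the WT-labelled libraries and 165, 157 and 165 CPM in the KO-labelled ones. The groups were far apart relative to their spread, at 301 ± 7.76 and 162 ± 4.85 CPM (SD, n = 3 each). Pdgfra fell 1.86-fold, a log2 fold change of -0.90 (SE 0.03, adjusted p = 2.01e-10). Some of the fibroblast markers, such as Dcn, also fell and mesothelial markers rose between these groups, with values given further on. The part of these markers in the Pdgfra result was not tested. In bulk libraries, fewer cells of a type and less RNA per cell cannot be told apart. On GRCm38 the gene lies on chromosome 5 from 75152292 to 75198215 on the plus strand, and 6.21% of its exonic bases are shared with the annotated genes Gm42802 and Gm42803 on the opposite strand.

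Pdgfrb encodes the receptor that prefers PDGF-B and PDGF-D chains and marks mural cells as well as fibroblasts. It had 558, 570 and 581 CPM in the WT-labelled libraries and 358, 356 and 365 CPM in the KO-labelled ones, without overlap. Pdgfrb fell 1.58-fold, with a log2 fold change of -0.66 (SE 0.03, 95% interval from -0.73 to -0.60, adjusted p = 8.75e-10). The gene lies on chromosome 18 from 61045150 to 61085061. The interval lies just past the 1.5-fold limit of 0.585 on the log2 scale. Non-overlap between groups was common in these libraries, at 64.2% of all genes tested, and 7 of the 10 genes showed it.

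Pdgfrl encodes a secreted receptor-like protein that lacks a kinase domain, and it changed in the opposite direction. Its counts were 77, 98 and 83 in the WT-labelled libraries and 211, 289 and 232 in the KO-labelled ones, or 2.66 ± 0.240 and 6.64 ± 0.592 CPM (SD, n = 3 each). Pdgfrl rose 2.49-fold (log2 fold change 1.32, SE 0.11, adjusted p = 5.57e-07). It lies on chromosome 8 from 40926212 to 40990785, and no exon of another gene overlaps it in GENCODE M21.

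Promoter sequence was available for 7 of the 10 genes, as 9 RefSeq windows of 300 bases that reach from 250 bases before to 50 bases after a transcription start on GRCm38.p6. Windows of Pdgfb, Pdgfrb and Pdgfrl were not analysed here. The upstream bases of 3 genes are shown 5′ to 3′, because they stand for the directions seen in the data: Pdgfra fell, Vegfb was lower without reaching the fold limit, and Pdgfc was higher without reaching it. Capitals mark the GC box GGGCGG on either strand. The first is chr5:75152001-75152250 on the plus strand, the second chr19:6987652-6987901 on the minus strand, and the third chr3:81036166-81036415 on the plus strand, and none of them overlaps an annotated exon.
Pdgfra: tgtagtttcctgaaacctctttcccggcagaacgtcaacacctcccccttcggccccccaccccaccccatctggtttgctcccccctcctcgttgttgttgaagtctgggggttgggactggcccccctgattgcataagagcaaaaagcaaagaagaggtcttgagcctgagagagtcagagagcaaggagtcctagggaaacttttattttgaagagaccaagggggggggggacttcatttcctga
Vegfb: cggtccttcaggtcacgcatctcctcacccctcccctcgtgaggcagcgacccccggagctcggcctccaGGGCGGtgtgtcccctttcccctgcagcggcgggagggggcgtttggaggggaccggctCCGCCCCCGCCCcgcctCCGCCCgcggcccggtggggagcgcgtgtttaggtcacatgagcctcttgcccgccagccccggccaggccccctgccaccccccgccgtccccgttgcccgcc
Pdgfc: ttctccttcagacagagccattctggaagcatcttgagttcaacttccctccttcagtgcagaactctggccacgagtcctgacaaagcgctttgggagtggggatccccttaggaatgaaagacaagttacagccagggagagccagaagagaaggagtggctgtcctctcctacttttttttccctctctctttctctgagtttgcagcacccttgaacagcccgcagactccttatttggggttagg
The upstream bases of Vegfb hold 4 GC boxes and those of Pdgfra and Pdgfc hold 0. A GC box was present in 6 of the 9 windows and in 35.7% of all 32851 RefSeq windows of that length. These 6 windows belong to Pdgfa, Vegfa, Vegfb and Vegfc. Their G and C content was 59.3% to 75.3%, against a median of 52.7% over all windows, and its part in the GC box count was not tested. The GLI site GACCACCCA, searched on both strands, was found in 0 of the 9 windows and in 0.253% of all windows. With exact matches that rare, 0 of 9 windows cannot tell these genes from others. For the hypoxia response core, only the letters ACGTG were searched, and other forms were not. ACGTG was found in 1 of the 9 windows, an internal start of Vegfa, against 19.6% of all windows. The TATA box TATAAA was found in 1 of the 9, that of Pdgfd, against 13.6%. Matches were counted with overlaps allowed, and they describe letters in these windows only.

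Among the PDGF ligands, the genes with high counts moved apart without reaching the fold limit. Pdgfa, whose product acts on PDGFRα, had 95.4, 96.2 and 93.5 CPM in the WT-labelled libraries and 72.6, 72.6 and 75.6 CPM in the KO-labelled ones. All 3 KO-labelled libraries were lower, by 1.29-fold (log2 fold change -0.37, SE 0.03, adjusted p = 7.81e-07). Pdgfa lies on the minus strand of chromosome 5 from 138976014 to 138997370. Of its exonic bases, 26.1% are shared with 6330403L08Rik on the opposite strand. Whether the counting used strand is not given in the sources used here, and the part of this overlap in the Pdgfa value was not tested.

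Pdgfc encodes a latent ligand that proteases must cut before it binds PDGFRα. It had 78.3, 74.9 and 73.6 CPM in the WT-labelled libraries and 94.9, 90.3 and 89.1 CPM in the KO-labelled ones, and was higher in all 3 KO-labelled libraries. Its 1.21-fold difference (log2 fold change 0.27, SE 0.04) passed the adjusted p alone, at 3.69e-05. Pdgfc lies on chromosome 3 from 81036416 to 81214040. The directions of Pdgfa and Pdgfc, the main PDGF ligand genes of these cells, were thus opposite.

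Pdgfb and Pdgfd had the fewest counts of the 10 genes. Pdgfb, best known as the endothelial ligand that recruits pericytes, had 61, 45 and 37 counts in the WT-labelled libraries and 77, 53 and 51 in the KO-labelled ones. Pdgfd, a latent ligand of PDGFRβ, had 32, 36 and 28 counts against 37, 34 and 35. The groups overlapped for both genes, which lie on chromosome 15 from 79995874 to 80014977 and on chromosome 9 from 6168584 to 6378850. The 95% interval of the log2 fold change ran from -0.36 to 0.67 for Pdgfb (adjusted p = 0.593) and from -0.47 to 0.39 for Pdgfd (adjusted p = 0.881). A rise of 1.5-fold lies within the interval of Pdgfb and outside that of Pdgfd. A floor of 3 counts lay between 0.0720 and 0.0957 CPM in these libraries, and covers counting error only.

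**Figure D2:**
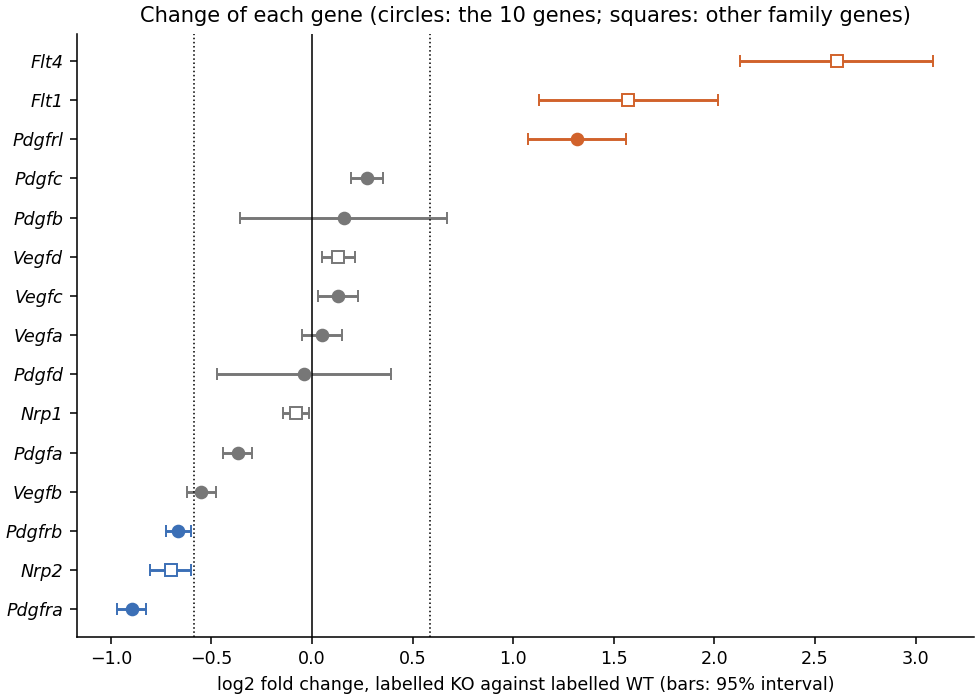
Log2 fold change of the KO-labelled libraries against those labelled WT with its 95% interval for the 10 genes (filled circles) and for 5 other genes of the families (open squares), with dotted lines at the 1.5-fold limit. Pdgfra, Pdgfrb and Nrp2 lie below the lower limit, Pdgfrl, Flt1 and Flt4 above the upper limit, and the intervals of Vegfa, Pdgfb and Pdgfd cross 0.

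Vegfa, the main angiogenic ligand and a classical hypoxia target, was similar in level in the groups. It had 153, 146 and 132 CPM in the WT-labelled libraries and 146, 152 and 148 CPM in the KO-labelled ones, and the libraries overlapped. Its log2 fold change of 0.05 had a 95% interval from -0.05 to 0.15 (adjusted p = 0.385), or from 0.965-fold to 1.11-fold. Vegfa lies on chromosome 17 from 46016993 to 46032369. Differences of 1.5-fold thus lie outside that interval, while small differences lie within it.

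Vegfb, a ligand of the Flt1 receptor linked mainly to cell survival and lipid handling, was lower in the KO-labelled libraries. It had 86.4, 86.3 and 84.9 CPM in the WT-labelled libraries and 58.2, 59.8 and 57.9 CPM in the KO-labelled ones, with spreads of 0.829 and 1.00 CPM (SD, n = 3 each). The difference of 1.46-fold (log2 fold change -0.55, SE 0.03, adjusted p = 1.71e-08) fell short of the fold limit, which lies within its 95% interval from -0.62 to -0.48. Vegfb is on chromosome 19 from 6982473 to 6987651. In size of change, Vegfb and Pdgfrb lie close together on either side of the limit.

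Vegfc encodes a ligand of the lymphatic receptor Flt4. It had 40.3, 43.1 and 43.8 CPM in the WT-labelled libraries and 43.9, 47.8 and 47.3 CPM in the KO-labelled ones. Vegfc is on chromosome 8 from 54077606 to 54187096. The groups nearly touched, and the log2 fold change was 0.13 (SE 0.05, adjusted p = 0.0303). Vegfd, the other lymphatic ligand, is not among the 10 genes but was measured, with 288 ± 10.6 CPM in the WT-labelled libraries and 316 ± 12.4 CPM in the KO-labelled ones (SD, n = 3 each). Its log2 fold change of 0.13 (SE 0.04, adjusted p = 0.00826) also passed the adjusted p without the fold limit.

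Levels of different genes were compared per kilobase of merged exons. In the WT-labelled libraries, Vegfd was highest at 120 ± 4.42 CPM per kilobase, followed by Pdgfrb at 104 ± 2.13 and Vegfb at 53.5 ± 0.516 (SD, n = 3). Vegfa at 33.5 ± 2.47, Pdgfa at 30.5 ± 0.440 and Pdgfra at 30.1 ± 0.774 CPM per kilobase came next, and these neighbours overlapped. Vegfc at 17.3 ± 0.751 and Pdgfc at 14.9 ± 0.473 CPM per kilobase were followed by Pdgfrl at 0.851 ± 0.0769, and the lowest were Pdgfb at 0.356 ± 0.0990 and Pdgfd at 0.314 ± 0.0324, which overlapped. In the KO-labelled libraries, Pdgfra moved from rank 6 to rank 8 of 11, at 16.2 ± 0.484 CPM per kilobase, below Vegfc at 18.9 ± 0.871 and Pdgfc at 18.0 ± 0.599, whose libraries overlapped. Vegfb at 36.5 ± 0.626 lay just above Vegfa at 34.6 ± 0.754 CPM per kilobase, without overlap. The lengths come from all annotated isoforms and not from those these cells use.

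The shares of the genes within each family also differed between groups. Pdgfra made up 22.4% ± 0.161 of the summed Pdgfra and Pdgfrb level per kilobase in the WT-labelled libraries and 19.8% ± 0.378 in the KO-labelled ones (SD, n = 3 each). The summed level of both receptors was 134 ± 2.87 and 81.8 ± 1.25 CPM per kilobase. Pdgfa made up 66.3% ± 0.726 of the PDGF ligand level in the WT-labelled libraries and 55.8% ± 1.35 in the KO-labelled ones, while Pdgfc made up 32.3% ± 0.541 and 42.5% ± 1.19. Pdgfb and Pdgfd had shares of at most 1.22% and 0.792% in any library.

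Of the VEGF ligand level, Vegfd made up 53.4% ± 1.27 in the WT-labelled libraries and 59.3% ± 0.660 in the KO-labelled ones, and Vegfb 23.9% ± 0.456 and 16.5% ± 0.473 (SD, n = 3 each). Vegfa made up 15.0% ± 1.16 and 15.7% ± 0.284, and these libraries overlapped. The summed VEGF ligand level was 224 ± 4.11 and 221 ± 6.78 CPM per kilobase (exact two-sided permutation p = 0.7). With 3 libraries against 3, an exact permutation test cannot give a two-sided p under 0.1. The shares of Pdgfra, Pdgfrb, Pdgfa, Pdgfc, Vegfb, Vegfc and Vegfd and the summed levels of receptors and PDGF ligands each gave that smallest exact p of 0.1, or 0.144 after Benjamini-Hochberg adjustment over the 13 values tested.

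**Figure D3:**
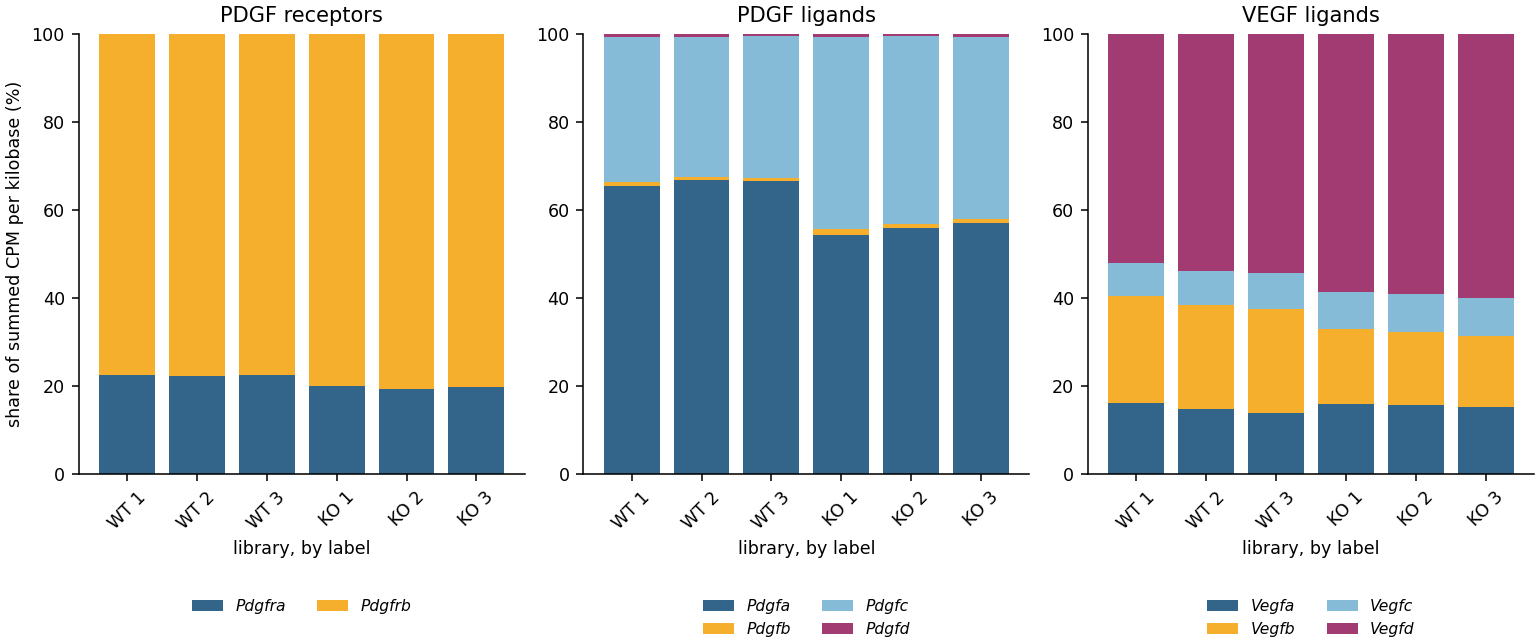
Stacked shares (%) of each gene in the summed CPM per kilobase of the PDGF receptors, the PDGF ligands and the VEGF ligands in each of the 6 libraries, by label. The Pdgfc share is between 31.8% and 32.9% in the WT-labelled libraries and between 41.2% and 43.6% in the KO-labelled ones, and the Vegfb share is between 23.5% and 24.4% and between 16.1% and 17.0%.

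Of 7 other ligand, receptor and co-receptor genes of these families, 5 were tested, and Pgf and Kdr were not analysed here. Flt4 and Flt1 rose and Nrp2 fell in the KO-labelled libraries, so that 3 of 5 passed both limits, where 17.7% of all genes tested did. With at least 10 counts required in every library, Flt1 and Nrp2 remained and Flt4 did not. Flt4 passed the count filter only through the KO-labelled libraries, so it could only have been called higher. Flt4, the lymphatic VEGF receptor gene, had 7, 12 and 12 counts in the WT-labelled libraries and 64, 85 and 68 in the KO-labelled ones, a rise of 6.09-fold (log2 fold change 2.61, SE 0.22, adjusted p = 5.47e-07). Flt1, the receptor gene for Vegfa and Vegfb, had 17, 31 and 35 counts against 95, 112 and 75, a rise of 2.97-fold (log2 fold change 1.57, SE 0.20, adjusted p = 2.65e-05). These receptor genes stayed low per length, at 0.239 ± 0.0170 CPM per kilobase for Flt4 and 0.189 ± 0.0177 for Flt1 in the KO-labelled libraries (SD, n = 3 each).

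The neuropilin genes encode co-receptors that VEGF ligands share with semaphorins. Nrp2 had 133, 129 and 141 CPM in the WT-labelled libraries and 82.8, 77.3 and 87.5 CPM in the KO-labelled ones, a fall of 1.63-fold (log2 fold change -0.70, SE 0.05, adjusted p = 5.45e-08). Nrp1 differed far less, at 190 ± 3.17 and 180 ± 3.73 CPM (SD, n = 3 each), with -0.08 as its log2 fold change (adjusted p = 0.0364). Pdgfra, Pdgfrb and Nrp2 were thus lower in the same 3 libraries in which Flt1, Flt4 and Pdgfrl were higher.

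Other genes of the pathways were read from 5 further lists. For the proteases and cofactors that cut PDGF and VEGF precursors, 3 of 9 tested genes rose and 0 fell. Past both limits, 11.6% of all genes tested rose and 6.1% fell. Pcsk6, a proprotein convertase, had 109 ± 6.21 CPM in the WT-labelled libraries and 330 ± 16.0 CPM in the KO-labelled ones, a rise of 3.02-fold (log2 fold change 1.59, SE 0.05, adjusted p = 1.92e-11). Adamts3, whose product cuts VEGF-C together with the Ccbe1 protein, had 0 counts in every WT-labelled library and 19, 18 and 15 in the KO-labelled ones. Against a floor of 3 counts in a library Adamts3 was at least 4.95-fold higher. It passed the count filter only through the KO-labelled libraries, so it could only have been called higher. Its relative Adamts14 rose 1.55-fold (adjusted p = 0.00742), but fell short of the fold limit without the first WT-labelled library (log2 fold change 0.54) or the first labelled KO (0.58).

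Of the activators of the latent PDGF ligands, Plat and Plau were tested and did not pass, and St14 was not analysed here. Plat, which encodes the protease that activates PDGF-C, had a log2 fold change of -0.03 (95% interval from -0.11 to 0.05, adjusted p = 0.478), and Plau, linked to PDGF-D, 0.06 (-0.10 to 0.23, adjusted p = 0.482). For Ccbe1 it was -0.04 (-0.17 to 0.09, adjusted p = 0.604). The median log2 fold change over all 9 tested genes of the list of proteases and cofactors was 0.06.

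Of 10 extracellular proteins and co-receptors that bind PDGF or VEGF ligands or their receptors, 2 rose and 1 fell, with a median log2 fold change of -0.13. Of all genes tested, 11.6% rose and 6.1% fell past both limits. Ccn2, a matricellular protein gene, had 284, 195 and 156 CPM in the WT-labelled libraries and 460, 480 and 432 CPM in the KO-labelled ones, with a wide spread in the former. Its log2 fold change was 1.11 (SE 0.15, adjusted p = 3.41e-05). Gpc1, a heparan sulphate proteoglycan gene, rose 1.86-fold (log2 fold change 0.90, adjusted p = 5.44e-08). Thbs2, which encodes an antiangiogenic thrombospondin, fell 3.79-fold, from 3.38 ± 0.442 to 0.894 ± 0.0503 CPM (adjusted p = 4.69e-07).

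Among the genes that act below the receptors, 1 passed both limits. Of 30 adaptors, kinases and other signalling genes, 1 rose and 0 fell, against 17.7% of all genes tested, and their median log2 fold change was -0.05. Pik3cb, a catalytic phosphoinositide kinase subunit gene, rose 1.66-fold, from 23.4 ± 1.07 to 38.8 ± 0.486 CPM (SD, n = 3 each, adjusted p = 2.60e-08). By the adjusted p alone, 7 were higher and 12 lower, where 29.9% of all genes tested were higher and 28.8% lower. Of 8 tested genes that attenuate the receptors, such as ubiquitin ligases and phosphatases, 0 passed both limits by edgeR and also by DESeq2. Of these, 5 passed the adjusted p alone, and 5 had an unadjusted p under 0.05. Over all 14289 genes tested, 58.7% passed the adjusted p alone and 9002 had an unadjusted p under 0.05.

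**Figure D4:**
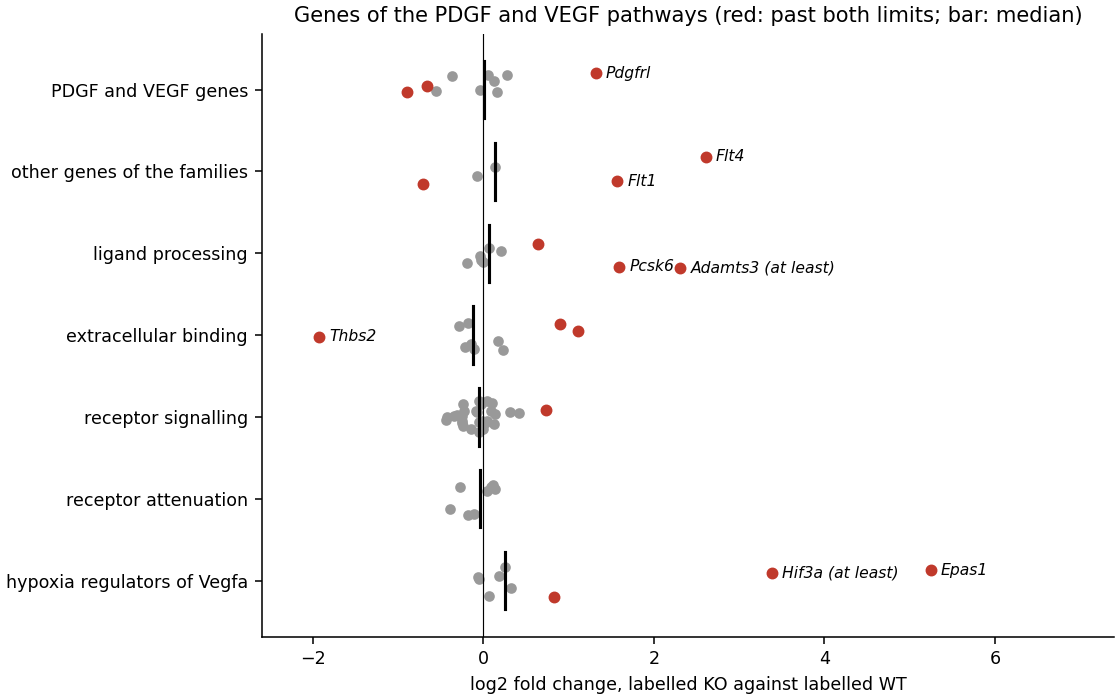
Log2 fold change of each tested gene (points) in the 10 PDGF and VEGF genes and in 6 further lists, with red points past both limits and a bar at each list's median. Hif3a and Adamts3 are drawn at the lower bound of their fold, and the 30 receptor signalling genes cluster around 0 with 1 red point, Pik3cb.

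Hypoxia-inducible factors and the hydroxylases that control them act upstream of Vegfa. Of 9 such genes, 3 rose and 0 fell, all from low counts, and the median log2 fold change was 0.25. Of all genes tested, 11.6% rose and 6.1% fell past both limits. The 3 genes passed the count filter only through the KO-labelled libraries, so they could only have been called higher. None of the 3 remained with at least 10 counts required in every library. Epas1, a HIF alpha subunit gene, had 2, 4 and 1 counts in the WT-labelled libraries and 102, 106 and 108 in the KO-labelled ones, a rise with an adjusted p of 1.59e-08. Counts in 2 WT-labelled libraries do not exceed the floor of 3, and the ratio of the summed counts, 316 against 7 before scaling to depth, was 39.7 with an exact 95% interval from 19.0 to 99.5 that covers counting error only. Hif3a had 0 counts in every WT-labelled library and 34, 37 and 38 in the KO-labelled ones, at least 10.4-fold higher against a floor of 3 counts in a library. Hif1a, the alpha subunit gene with most reads, had 102 ± 1.67 and 122 ± 0.857 CPM (log2 fold change 0.25, SE 0.03, adjusted p = 1.11e-05). The HIF hydroxylase gene Egln3 had 8, 8 and 7 counts in the WT-labelled libraries and 13, 21 and 13 in the KO-labelled ones. Its adjusted p of 0.0367 rose above 0.05 when any library other than the first labelled KO was left out (0.0544 to 0.158) and was 0.199 by DESeq2.

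Markers of cell types moved with the groups, and their part in the PDGF and VEGF results was not tested. Of 10 fibroblast markers, 7 were tested, of which 0 rose and 3 fell, where 6.1% of all genes tested fell past both limits. Thy1, which did not pass the count filter, had 4, 1 and 0 counts in the WT-labelled libraries and 19, 15 and 9 in the KO-labelled ones. Vim was 1.10-fold lower, and Postn had a log2 fold change of -0.24 (adjusted p = 0.120). Col3a1, Dcn and Lum fell 1.92-fold, 2.92-fold and 48.7-fold, while Col1a1 had a log2 fold change of 0.01 (95% interval from -0.07 to 0.09, adjusted p = 0.799). Lum had 349, 411 and 370 counts in the WT-labelled libraries and 12, 7 and 7 in the KO-labelled ones. It passed the count filter only through the WT-labelled libraries, so it could only have been called lower. The summed level of the 8 fibroblast markers with counts lay between 43945 and 46397 CPM in the WT-labelled libraries and between 36274 and 38013 CPM in the KO-labelled ones. Collagen genes made up most of this sum. Mean levels were 8970 and 4678 CPM for Col3a1, 13233 and 11589 for Col1a2, and 2643 and 905 for Dcn. Col1a1 had 15982 and 16113 CPM. Pdgfra and Pdgfrb thus moved in the same direction as part of the fibroblast genes.

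Mesothelial markers moved the other way. In the KO-labelled libraries 4 of 4 rose past both limits, where 11.6% of all genes tested did. Their summed level lay between 21.5 and 24.4 CPM in the WT-labelled libraries and between 267.0 and 267.4 CPM in the KO-labelled ones, with Msln at 77, 91 and 62 counts against 5949, 6904 and 5392. Of 10 epithelial markers, 5 had counts, with a summed level between 20.2 and 22.7 CPM and between 44.0 and 45.5 CPM. Krt7 rose from 4.38 ± 0.472 to 23.1 ± 0.257 CPM and Cela1 from 8.04 ± 0.747 to 14.7 ± 0.964 CPM, whereas Sox9 was lower, at 8.51 ± 0.104 and 6.03 ± 0.446 CPM (log2 fold change -0.50, adjusted p = 0.000173). Of 10 mural markers, 3 had counts, with a summed level between 10.4 and 11.3 CPM and between 25.7 and 29.0 CPM, and the difference came from Mcam, which rose 5.73-fold, from 3.56 ± 0.343 to 20.4 ± 1.32 CPM. Notch3 had 7.10 ± 0.167 and 6.81 ± 0.387 CPM (log2 fold change -0.06, adjusted p = 0.527). Of 10 endothelial markers, 3 had counts, with a summed level between 2.27 and 3.29 CPM and between 5.18 and 5.50 CPM, and the difference came from Egfl7, which rose from 0.789 ± 0.287 to 3.67 ± 0.227 CPM. Vwf had a log2 fold change of -0.44 (adjusted p = 0.145) and Esam 0.31 (adjusted p = 0.414), and the defining genes Pecam1, Cdh5 and Kdr were not analysed here. The part of endothelial cells in the Flt1 and Flt4 results was not tested. Of 6 macrophage and leukocyte markers, 3 had counts, and the summed level lay between 39.5 and 45.5 CPM and between 38.4 and 40.1 CPM.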

How the data were processed

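RNAseq libraries (poly-A selected) of 3 cultures labelled WT and 3 labelled KO were analysed. The authors deposited raw read counts per gene, and a second table of log2 CPM that they made with voom. Per the labels, STAR 2.7.2b, featureCounts, limma and GRCm38.p6 were used. Their parameters and the strand setting are not given in the sources used here. Low-count genes appear to have been removed before deposit. Totals ran from 31728420 to 41035931 counts, so that a floor of 3 counts corresponds to 0.0720 to 0.0957 CPM.

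Groups came from the genotype labels. Replicates are wells, so p-values measure the spread between wells of a line. Counts of each replicate pair differed by more than sampling noise (chi-square per degree of freedom from 2.468 to 7.526), and all 6 libraries were kept. Counts were filtered with filterByExpr, scaled with TMM and tested with edgeR 4.0.16 (glmQLFit and glmQLFTest, R 4.3.3, common biological coefficient of variation 3.74%). Calls needed a fold change of 1.5 or more besides an adjusted p (Benjamini-Hochberg) below 0.05. The script was tested on simulated counts of 14098 genes, where 95.4% of 197 tested genes with known changes were recovered with 1 false call. Changes of at least 2-fold were simulated, in 200 genes. The recovery therefore does not cover changes near the 1.5-fold limit or data in which as many genes differ as here. Alternatives were DESeq2 1.42.0, limma 3.58.1 on the counts and on the deposited log2 values, other scalings, other count filters, other fold limits and leaving out each library. Shares per kilobase of merged GENCODE M21 exons were compared by exact two-sided permutation tests. Of the gene identifiers, 14822 matched GENCODE M21 without version. Promoter windows came from RefSeq on GRCm38.p6, and no window on chromosome 18 is printed.

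The genes, the pathway and marker lists and the tests were chosen with earlier results of these data known. Named genes are the 10 genes, the other genes of the families, Gli2, Gli3, up to 3 called genes in each direction per pathway list by size of change, the 3 genes closest in profile to the called gene with the largest change, and markers of lists whose level moved. Hif1a, Plat, Plau and Ccbe1 were named after their values were seen, and St14 because it was not analysed here.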

Additional observations from a re-analysis of the deposited data

How the results depend on the processing

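Pdgfra, Pdgfrb and Pdgfrl remained the 3 called genes of the 10 under every scaling, filter and tool and without any single library (3 to 3). With no fold limit 7 were called, and with a 2-fold limit 1. Over all settings the log2 fold change ran from -0.91 to -0.84 for Pdgfra, from -0.68 to -0.61 for Pdgfrb, from 1.26 to 1.39 for Pdgfrl and from -0.57 to -0.49 for Vegfb. Of all genes, 2531 were called, 2501 to 2618 without a library, 8391 with no fold limit and 1456 with a 2-fold limit. Of the pathway genes, 13 were called, 11 to 12 without a library, 8 with at least 10 counts in every library, 48 with no fold limit and 8 with a 2-fold limit. Uncalled log2 fold changes changed sign for Pdgfd with upper-quartile scaling (0.0172) and, without a library, for Pdgfb (-0.0873 to 0.394), Pdgfd (-0.122 to 0.0835) and Vegfa (-0.0102 to 0.0952). Without length correction the shares moved by -3.52 points for Pdgfra, 3.52 for Pdgfrb, -5.03 for Vegfb and 4.003 for Vegfd. Leaving out a library gave -2.84 to -2.47 points for Pdgfra, 2.47 to 2.84 for Pdgfrb, -11.1 to -9.71 for Pdgfa, 9.66 to 10.8 for Pdgfc, -7.61 to -7.12 for Vegfb and 5.12 to 6.30 for Vegfd. No paired analysis was possible because the labels give the groups no shared replicate numbers. The standard error of the log2 fold change was 0.24 for Pdgfb and 0.20 for Pdgfd, the genes with the fewest counts of the 10, and between 0.03 and 0.11 for the others.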

Other observations

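The genes whose profile over the 6 libraries lay closest to that of Pdgfrl, by Euclidean distance of log2 CPM centred on each gene's mean, were Nxph4, Dlc1 and Vdr. Nxph4, a neurexophilin gene, lay at a distance of 0.136 with 0.712 ± 0.0695 CPM in the WT-labelled libraries and 1.91 ± 0.189 CPM in the KO-labelled ones (SD, n = 3 each). Dlc1 lay at 0.136 with 52.5 ± 1.96 and 130 ± 7.06 CPM. Vdr, the vitamin D receptor gene, lay at 0.150 with 8.02 ± 0.876 and 19.3 ± 1.06 CPM. The 6 points of each profile fall into 2 groups, so any gene with a similar difference between groups has a similar profile.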
